A study of Mus musculus with 117 samples.

Results

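The bins described here are those in which hepatocytes of NOD/ShiLtJ carried a chromatin state that no other strain of the panel carried. Autosomes 1 to 19 were divided into 200-bp bins, and a bin was taken as private to NOD/ShiLtJ where the other 8 strains shared a single state and NOD/ShiLtJ had another. The rule found 185701 bins of 12313718, which is 1.51% of the autosomal bins or 37.1 Mb. They formed 65637 runs of adjoining bins with a mean length of 566 bp, and 26841 of these runs were a single bin. Because the rule uses the states themselves, the number of private bins and their states describe the choice, and no test is attached to them.

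A chromatin state is a recurring combination of histone marks along the genome. Trimethylation of lysine 4 of histone H3 (H3K4me3) is known from active gene starts, and monomethylation of the same residue (H3K4me1) from enhancers and the flanks of starts. Acetylation of lysine 27 (H3K27ac) marks active starts and enhancers, whereas its trimethylation (H3K27me3) is laid down by Polycomb complexes over silent genes. NOD/ShiLtJ is an inbred strain that develops autoimmune diabetes spontaneously, mostly in females, through T cells that attack the insulin-producing cells of the pancreas. The hepatocyte is the parenchymal cell of the liver, which makes plasma and complement proteins, bile acids and glucose.

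The study profiled liver hepatocytes of untreated inbred females aged 12 weeks by chromatin immunoprecipitation and sequencing. Beside NOD/ShiLtJ stood the wild-derived strains WSB/EiJ, PWK/PhJ and CAST/EiJ, the reference strain C57BL/6J, and NZO/HlLtJ, DBA/2J, A/J and 129S1/SvImJ. Each strain had 13 libraries, made of 4 marks (H3K4me1, H3K4me3, H3K27ac and H3K27me3) in 3 mice and 1 input. The deposited segmentation of a strain assigns 1 of 14 numbered states to every bin, and a strain is therefore a single value with no error between its mice. An exact permutation test of 1 strain against 8 cannot give a p below 0.111, so NOD/ShiLtJ is given below beside the lowest, median and highest of the other 8 strains. The labels do not say whether these NOD/ShiLtJ mice had diabetes. CAST/EiJ and PWK/PhJ belong to other subspecies than most laboratory strains and differ most in sequence from C57BL/6J. The marks behind each state number are not given in the sources used here, and a number serves only as a name.

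Promoters that lay wholly in private bins show the kinds of sequence involved, and 8 of them are printed here because the genes recur below. They run from 250 bases before to 50 bases after a RefSeq gene start (assembly GRCm38.p6) and give the C57BL/6J reference, not the NOD/ShiLtJ sequence. Motifs were searched on both strands, and capitals mark the matches. The TATA box was searched as TATAAA. The CCAAT box was searched by the letters of its name, and the GC box as GGGCGG. The nuclear receptor half-site was searched as AGGTCA and a C/EBP site form as TTNNGCAA. An HNF4 site form (CAAAGTCCA), an interferon response core and an NF-kB site form were also searched and had no match in these 8.
Cd36, chr5:17835847-17836146, minus strand: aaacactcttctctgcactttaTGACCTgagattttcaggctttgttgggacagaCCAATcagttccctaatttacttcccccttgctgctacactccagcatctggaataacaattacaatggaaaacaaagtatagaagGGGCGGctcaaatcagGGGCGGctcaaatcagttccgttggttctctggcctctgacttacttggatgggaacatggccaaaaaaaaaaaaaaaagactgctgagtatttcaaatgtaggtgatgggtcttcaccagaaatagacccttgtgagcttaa
Gzmm, chr10:79688770-79689069, plus strand: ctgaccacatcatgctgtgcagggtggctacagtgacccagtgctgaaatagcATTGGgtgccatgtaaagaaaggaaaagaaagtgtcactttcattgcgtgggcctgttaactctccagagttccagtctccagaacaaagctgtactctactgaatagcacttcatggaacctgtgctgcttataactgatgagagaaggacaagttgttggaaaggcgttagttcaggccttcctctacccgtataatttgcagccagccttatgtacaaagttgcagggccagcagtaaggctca
Cd79a, chr7:24897247-24897546, plus strand: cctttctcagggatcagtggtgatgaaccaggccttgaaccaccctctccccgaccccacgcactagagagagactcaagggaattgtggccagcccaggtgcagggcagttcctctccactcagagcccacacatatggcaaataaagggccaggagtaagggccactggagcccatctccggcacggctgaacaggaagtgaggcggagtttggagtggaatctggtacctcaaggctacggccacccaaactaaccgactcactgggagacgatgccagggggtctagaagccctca
Klra9, chr6:130193063-130193362, minus strand: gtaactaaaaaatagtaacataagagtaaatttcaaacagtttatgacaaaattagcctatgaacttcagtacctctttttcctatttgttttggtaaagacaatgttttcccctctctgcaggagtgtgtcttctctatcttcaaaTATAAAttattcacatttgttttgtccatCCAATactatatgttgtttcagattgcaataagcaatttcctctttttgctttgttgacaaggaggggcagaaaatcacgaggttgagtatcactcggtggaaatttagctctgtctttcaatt
Serpinb2, chr1:107511173-107511472, plus strand: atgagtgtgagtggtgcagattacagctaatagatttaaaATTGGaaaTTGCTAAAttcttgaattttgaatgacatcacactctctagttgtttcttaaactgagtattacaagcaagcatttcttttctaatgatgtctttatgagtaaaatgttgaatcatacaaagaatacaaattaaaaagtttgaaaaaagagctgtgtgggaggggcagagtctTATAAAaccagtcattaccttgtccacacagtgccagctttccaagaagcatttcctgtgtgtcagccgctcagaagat
Ppp1r3a, chr6:14755225-14755524, minus strand: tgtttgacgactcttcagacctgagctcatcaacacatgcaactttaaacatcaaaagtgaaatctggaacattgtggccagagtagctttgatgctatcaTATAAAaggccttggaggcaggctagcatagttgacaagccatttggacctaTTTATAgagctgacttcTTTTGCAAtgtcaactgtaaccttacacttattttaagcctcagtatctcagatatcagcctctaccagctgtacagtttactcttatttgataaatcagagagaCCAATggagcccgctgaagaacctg
Gpr33, chr12:52028014-52028313, minus strand: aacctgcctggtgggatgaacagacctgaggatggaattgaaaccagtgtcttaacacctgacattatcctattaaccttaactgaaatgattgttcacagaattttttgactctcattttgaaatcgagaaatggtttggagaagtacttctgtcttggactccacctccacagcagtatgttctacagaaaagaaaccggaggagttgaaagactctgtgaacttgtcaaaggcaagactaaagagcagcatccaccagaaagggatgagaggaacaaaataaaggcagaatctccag
Ikzf1, chr11:11689927-11690226, plus strand: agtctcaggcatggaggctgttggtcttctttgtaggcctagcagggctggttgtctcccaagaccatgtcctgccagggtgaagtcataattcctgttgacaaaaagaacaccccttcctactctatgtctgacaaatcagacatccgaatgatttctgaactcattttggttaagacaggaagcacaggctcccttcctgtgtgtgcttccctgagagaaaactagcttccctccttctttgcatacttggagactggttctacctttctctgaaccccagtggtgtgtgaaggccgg

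Cd36 encodes a fatty acid transporter and scavenger receptor. The promoter at its only listed start, inside the annotated gene, had state 1 in the other 8 strains and state 14 in NOD/ShiLtJ. Gzmm (granzyme M, a protease of natural killer cells) and Cd79a (a signalling chain of the B cell receptor) went from state 14 to state 9. Klra9 (a lectin-like receptor of natural killer cells), Serpinb2 (plasminogen activator inhibitor 2) and Ppp1r3a (a glycogen-targeting subunit of protein phosphatase 1) went from state 14 to state 13. Gpr33, an orphan receptor related to chemoattractant receptors, went from 14 to 4, and the second listed start of Ikzf1 (Ikaros, a transcription factor of lymphoid development) from 13 to 14. Across all promoters touched, those with a bin that went from 14 to 13 (n = 64) had a median GC content of 38.7% and a TATAAA match in 46.9%. Those that went from 14 to 9 (n = 32) had 53.0% GC and a TATAAA match in 12.5%. Among all 20085 autosomal promoters of protein-coding genes these values were 57% and 12.7%, and among the 2633 promoters with state 14 in all 9 strains they were 45.3% and 29.0%. Of all promoters, 38.1% held a CCAAT box, 47.0% a GC box, 14.7% the nuclear receptor half-site, 10.3% the C/EBP form, 3.38% the interferon core, 1.65% the NF-kB form and 0.463% the HNF4 form. A match says only that the letters are present.

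The cell type was checked on marker genes of hepatocytes and of other liver cells. Over the start windows of 28 hepatocyte markers with a listed start, states 1 to 3 covered 100% of the bins in NOD/ShiLtJ and 94.8 to 100% in the other strains. Over all 16457 genes they covered 40.2% in NOD/ShiLtJ. The same states covered 3.46% of the bins at 38 T and natural killer cell markers in NOD/ShiLtJ (others 2.85 to 4.48%), 6.41% at 19 B cell markers (others 4.27 to 9.83%) and 13.1% at 37 Kupffer and myeloid markers (others 10.7 to 19.5%). They covered 15.2% at 14 endothelial markers (others 13.6 to 40.9%). At 17 stellate and biliary markers they covered 16.7%, above the range of the others (7.88 to 15.3%), and the part of this in the results was not tested. State 3 was the state of gene starts, since it covered 36.6% of the NOD/ShiLtJ bins that held a start and 0.919% of those 10 kb away. In the other strains these shares were 36.7 to 40.1% and 0.846 to 1.16%.

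NOD/ShiLtJ ranked 4 of 9 by number of private bins. The other strains ranged from 79623 in C57BL/6J to 561176 in PWK/PhJ, and CAST/EiJ (289622) and WSB/EiJ (248051) were also above NOD/ShiLtJ. Next below it was A/J with 165924. With states 9 and 14 merged, a setting chosen after seeing the data, A/J (166234 bins) stood above NOD/ShiLtJ (151251), so their order rests on the bins that went from 14 to 9. The longest NOD/ShiLtJ run of adjoining private bins with 1 change of state was 16200 bp, below the longest in PWK/PhJ (20800 bp) and WSB/EiJ (20400 bp).

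**Figure D1:**
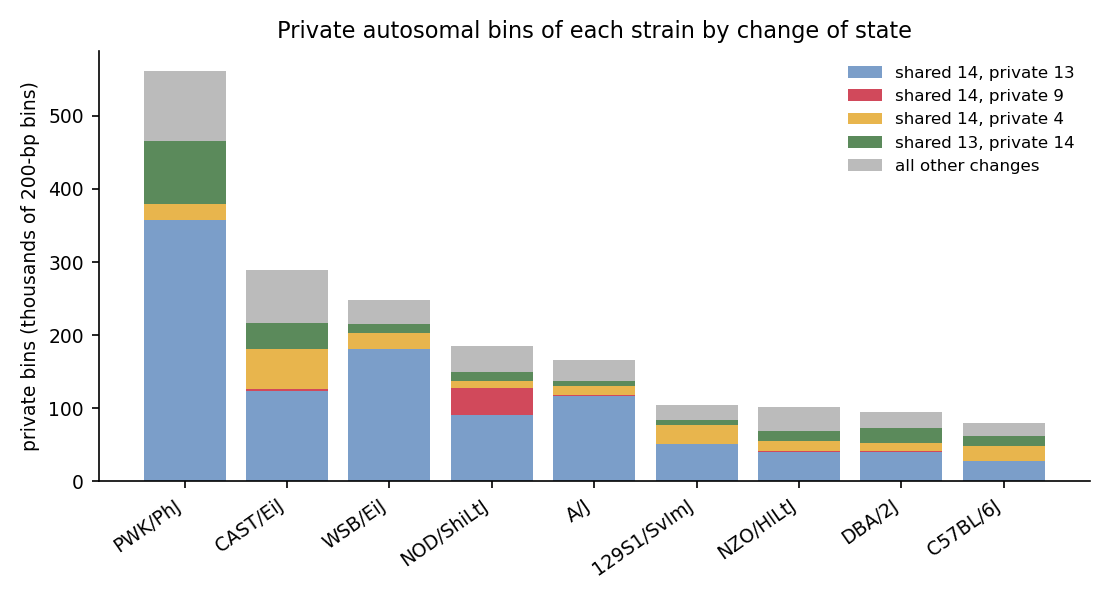
Private autosomal bins of each strain, split by the state that the other 8 strains shared and the state of the strain itself. The bar for NOD/ShiLtJ stands at 185701 bins, below PWK/PhJ, CAST/EiJ and WSB/EiJ, and the segment for shared state 14 and private state 9 holds 36119 bins in NOD/ShiLtJ against at most 2810 in any other strain.

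Most NOD/ShiLtJ private bins left state 14, the most widespread state. Of the 185701, 79.2% had state 14 in the other 8 strains (others by the same rule 61.3 to 85.8%, rank 4 of 9). This was close to the share of state 14 among all autosomal bins of those strains, 74.8 to 78.6%. A further 9.15% had state 14 in NOD/ShiLtJ alone. The largest class was the change from 14 to 13, with 90951 bins or 49.0% of the private bins. In the other strains this class held 34.5 to 73.0% (median 45.5%), so its share in NOD/ShiLtJ lay within their range. The reverse, from 13 to 14, held 12055 bins or 6.49% (others 4.31 to 21.1%).

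The change from 14 to 9 set NOD/ShiLtJ apart. It held 36119 bins or 19.5% of the private bins, whereas in the other strains it held between 0.102% and 1.53% (median 0.648%). The single NOD/ShiLtJ value lay above the range of the others, and the highest count in another strain was 2810 bins in CAST/EiJ. A further 813 bins went from state 4 to 9 where no other strain had more than 34. NOD/ShiLtJ also gained most bins of state 8, 5232 against 545 to 4370, of which 2327 came from state 6 and 1900 from state 1. By contrast it gained fewest bins of state 4, 10176 against 12050 to 59439. Another 653 bins went from state 4 to 3, against at most 93 in the others.

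**Figure D2:**
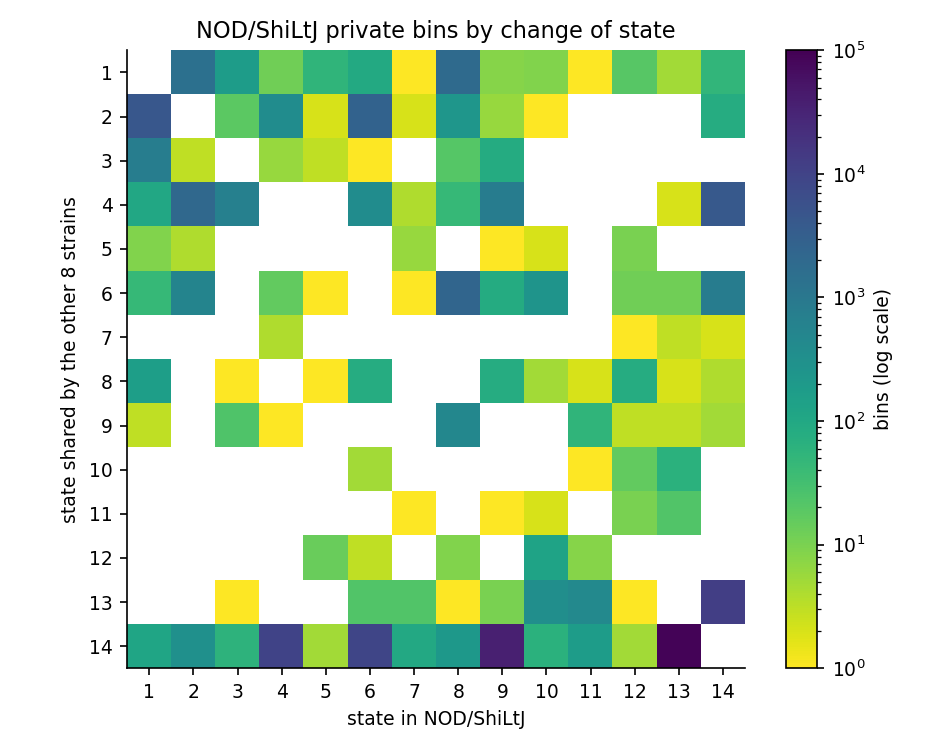
NOD/ShiLtJ private bins by the state shared in the other 8 strains (vertical axis) and the state in NOD/ShiLtJ (horizontal axis), with the number of bins on a log colour scale and white where there were none. The darkest cells are the changes from state 14 to 13 (90951 bins) and from 14 to 9 (36119 bins).

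These changes went with the overall shares of the states. State 9 covered 1.59% of the NOD/ShiLtJ autosomes against 0.271% in PWK/PhJ to 0.971% in A/J (median 0.750%), the highest of the 9 strains. State 8 covered 1.02% (others 0.438 to 0.926%) and was again highest, while state 4 covered 1.89% (others 2.30 to 3.49%) and was lowest. NOD/ShiLtJ had 23157 segments of state 9 with a mean length of 1695 bp, against 11160 to 19576 segments with means of 599 to 1306 bp. Both the number and the length were above the range of the other strains. Sequencing depth and library quality are unknown for every strain, and their part in the wider state 9 was not tested.

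The private bins that went from 14 to 9 lay near gene starts but mostly not at them. Windows of 1 kb to each side of a listed start held 1.14% of these bins and 1.56% of all autosomal bins. The median distance of these bins from a listed start was 5.4 kb (quartiles 4 and 7.6 kb). Of them, 79.7% lay within 10 kb of one, against 12.3% of all autosomal bins. By contrast, bins that went from 14 to 13 had a median distance of 185.2 kb and 7.36% within 10 kb. Gene bodies outside start windows held 59.7% of the bins that went from 14 to 9 and 39.0% of all autosomal bins. More than 5 kb from any gene lay 7.79% of the bins from 14 to 9 and 68.7% of those from 14 to 13. The same held for 54.3% of all autosomal bins and 59.9% of the bins with state 14 in all 9 strains. In windows of 1 Mb in the lowest quartile of gene content there were 0.487 bins from 14 to 9 per Mb, and in the highest quartile 40.6 per Mb. Of the 36119 bins, 84.2% lay in a NOD/ShiLtJ state 9 segment that also held state 9 in at least 1 other strain. Most thus lay in segments where another strain had state 9 in at least 1 bin. Of all NOD/ShiLtJ state 9 bins, 5.89% had state 9 in all other strains. Of the 23157 segments, 905 consisted of bins from 14 to 9 alone.

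The level of state 9 was also viewed by distance from starts. At 2 kb upstream of 31360 distinct starts, state 9 was found at 17.01% of the starts in NOD/ShiLtJ and at 4.49 to 13.95% in the others. At 5 kb upstream it was 10.5% against 0.756 to 4.6% (median 2.57%), and at 5 kb downstream 13.1% against 0.456 to 5.17% (median 2.15%). At the start itself NOD/ShiLtJ had 2.14% and the others 1.05 to 2.01%. State 9 was thus highest in NOD/ShiLtJ at each of these distances, but not at 1 kb downstream, where it had 4.19% and NZO/HlLtJ 4.38%, CAST/EiJ 4.27% and DBA/2J 4.22%. The gap to the next strain was wider at 5 kb than at the start. State 8 at 5 kb downstream was 6.03% against 0.740 to 3.9%.

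**Figure D3:**
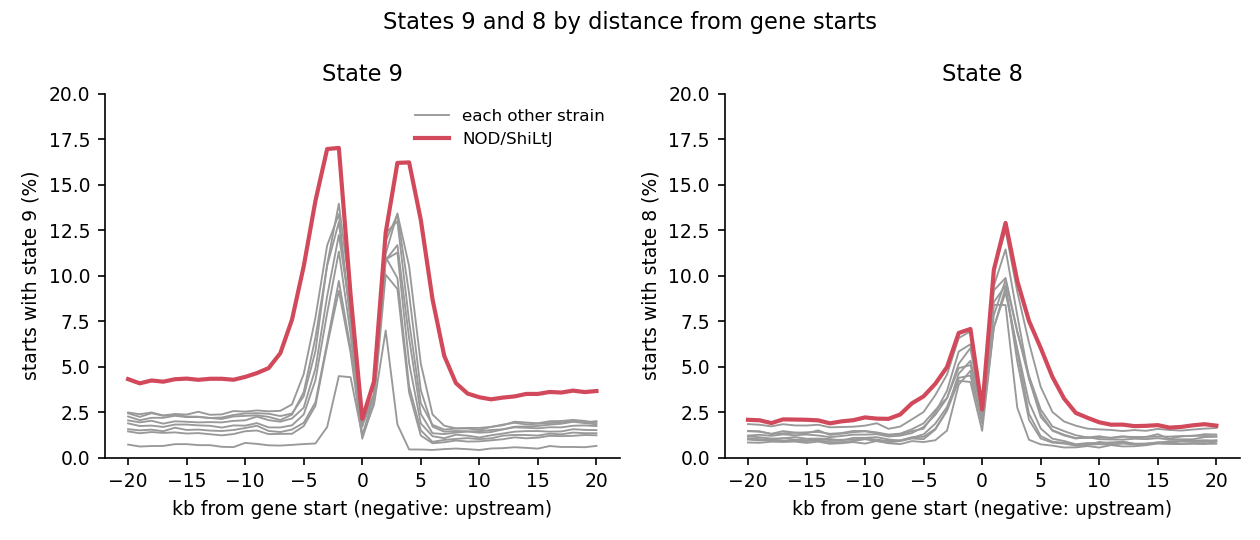
Percentage of gene starts with state 9 (left) or state 8 (right) in the bin at each distance, in kb from the start with negative values upstream, for NOD/ShiLtJ (thick line) and each other strain (thin lines). NOD/ShiLtJ is above every other strain at 5 kb to either side, with 10.5% upstream and 13.1% downstream for state 9.

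Just outside the rule lay 256143 bins in which exactly 7 of the other 8 strains shared a state that NOD/ShiLtJ did not have. In 87.5% of these the odd strain had the same state as NOD/ShiLtJ. The odd strain was PWK/PhJ in 68415 bins and A/J in 46091, and A/J had the NOD/ShiLtJ state in 92.9% of its bins. Of the 14 to 9 bins among them, A/J shared 6181, CAST/EiJ 3370, NZO/HlLtJ 2241 and PWK/PhJ 20. The strains with the largest overlap in this change were thus among those with the highest state 9 shares.

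A window of 1 kb to each side of the start of a protein-coding gene held 1.73% of the private bins and 1.56% of all autosomal bins. This order turned with the processing, since the share was 1.13% without runs of a single bin and 1.25% without bins beside a matching state. Among 16457 genes with a listed start, 2040 had at least 1 private bin in the window, which is 12.4%. By their own private bins the other strains had 6.87% (129S1/SvImJ), 7.05% (C57BL/6J), 9.94% (A/J), 10.6% (NZO/HlLtJ), 11.5% (DBA/2J), 12.6% (WSB/EiJ), 14.5% (CAST/EiJ) and 18.3% (PWK/PhJ). A single bin was all that 1423 of the 2040 had, and 271 genes (1.65%) had 3 or more. With runs of a single bin left out, the count was 643. For 4103 further genes without a listed start, windows at both ends were used, and 778 of them (19.0%) had a private bin. Over the gene body, 10753 of 20560 genes (52.3%) had at least 1.

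By kind of change at the start, 197 genes (1.20%) had a bin that went from 14 to 13, 175 (1.06%) from 14 to 9 and 120 (0.729%) from 13 to 14. A loss of states 1 to 3 to state 13 or 14 occurred at 3 genes (0.0182%), which were Cd36, Acot11 and Tlr11. None of the 16457 genes with a listed start showed the reverse, a gain of states 1 to 3 from 13 or 14 (0%). Genes without a listed start are not in this count, and among them Mamdc2 had 1 such bin at its ends. Of the bins that went from 3 to 1, 68.4% lay in start windows, and 46.3% adjoined a bin in which all other 8 strains had state 1. The bins from 14 to 13 adjoined a bin with state 13 in all other 8 strains in 0.00990% of cases. Those from 14 to 9 adjoined a bin with state 9 in all other 8 in 0.00277%. Only 5.89% of the NOD/ShiLtJ state 9 bins had state 9 in all other 8, so this share was likely to be low beforehand. Whether borders of segments were shifted was not tested by it.

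Whole start windows of 11 bins changed at 6 genes. They were Serpinb2, Ppp1r3a, the gene 5430401F13Rik and the olfactory receptor Olfr301 (14 to 13), Spaca3, a protein of the sperm acrosome (13 to 14), and Gpr33 (14 to 4). In each of them the other 8 strains had the shared state in all 11 bins. Gzmm had 11 private bins of the 22 around its 2 starts, all from 14 to 9. NOD/ShiLtJ had state 9 in those 11 bins and 14 in the rest, while the others had state 9 in none. Rpl3l (a muscle form of a ribosomal protein) had state 9 in all 22 bins of NOD/ShiLtJ and in 0 to 1 bins of the others, and Dcdc2b (a doublecortin-domain protein) in 11 of 11 against 0 to 1. At Tppp2, a tubulin-binding protein, the others had state 4 in all 11 bins and NOD/ShiLtJ had state 9 in 8 of them. Ly6g6f, a gene of the major histocompatibility complex, had state 9 in 8 of 11 bins against 0. These genes thus fell into those that gained state 13 and those that gained state 9, with Spaca3 and Gpr33 apart from both.

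The longest private stretches lay in 1 gene cluster on chromosome 7. The Sult2a genes encode sulfotransferases that conjugate hydroxysteroids and bile acids, and several of them are known to be higher in female than in male mouse liver. Of the 15 longest runs with a single change, 9 lay at or between Sult2a1 and Sult2a6, all from 14 to 13, up to the 16200 bp run at chr7:13997201-14013400. Over the cluster from Sult2a2 to Sult2a8 (chr7:13733506-14446780), 1008 of 3567 bins were private. State 13 covered 44.4% of the cluster in NOD/ShiLtJ and 0 to 2.44% in the others (median 1.19%), and state 14 covered 41.5% against 69.1 to 80.7%. NOD/ShiLtJ was thus far outside the range of the other 8 strains, among which 129S1/SvImJ was highest for state 13. The 2 windows of 1 Mb that hold the cluster had 648 and 547 private bins and ranked 1 and 3 of 2454, against a median of 67.

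The genes of the cluster differed among themselves. State 13 covered 72.9% of Sult2a1 in NOD/ShiLtJ (others 0 to 1.93%), 70.8% of Sult2a4 (others 0 to 11.2%), 76.3% of Sult2a3 (others 0 to 1.43%) and 50.3% of Sult2a6 (0 in each other strain). Sult2a1 had state 6 over 2.90% of its body, against 28.5 to 44.0% in the others, and state 1 over 0% against 2.42 to 15.9%. It counted only 5 private bins of 207, since a bin counts only where the other 8 strains share 1 state. Sult2a2, at the edge, had state 13 over 10.3% (others 0 to 2.59%) and state 10 over 13.8% (others 0%). Sult2a8, at the far edge, had state 1 over 38.1%, within the range of the others (27.6 to 43.6%). State 4 over 19.9% (others 27.6 to 43.6%) and state 14 over 11.05% (others 0 to 6.63%) lay outside the ranges of the others. The gain of state 13 thus covered the genes between the edges and ended before Sult2a8. These genes are near-identical copies of each other, so reads may be placed on the wrong copy, and the part of this in the result was not tested.

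**Figure D4:**
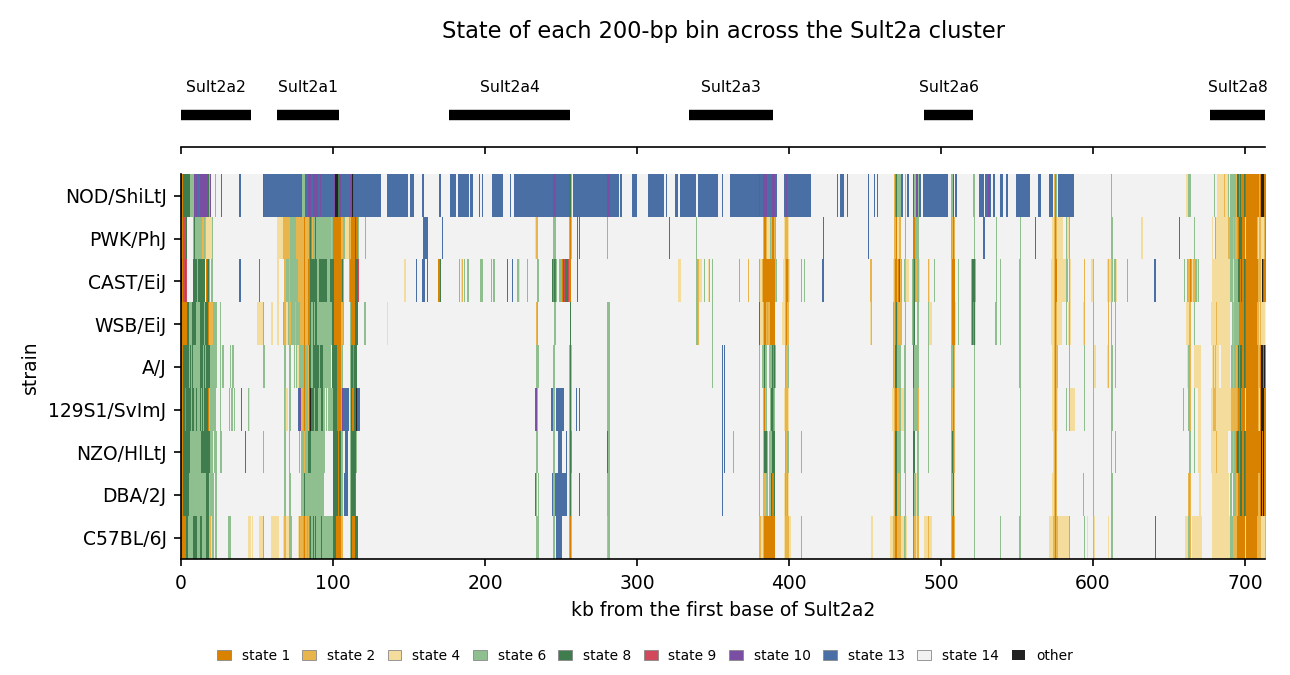
State of each 200-bp bin across the Sult2a cluster in the 9 strains (rows), by distance in kb from the first base of Sult2a2, with the genes drawn above. State 13 covers 44.4% of the NOD/ShiLtJ row and at most 2.44% of any other row, and it does not reach Sult2a8 in the NOD/ShiLtJ row.

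Of the 3 genes that lost states 1 to 3 to state 13 or 14 at a listed start, Cd36 had the most private bins. Its gene lies at chr5:17781690-17888959. The window of its only listed start, inside the gene, had state 14 in all 11 bins of NOD/ShiLtJ. In the other strains 6 to 11 of the 11 bins (median 9) had state 1 and none had state 14. This separation follows from the choice of the gene by lost states 1 to 3 in this window. Only 6 of the 11 bins counted as private, since in the remaining bins the others were divided between states 1, 2, 3, 6, 8 and 9. Over the gene body, state 1 covered 1.68% in NOD/ShiLtJ and 8.75 to 18.4% in the others (median 12.3%), and state 13 covered 6.89% against 0 to 0.745%. States 2 (5.96%) and 6 (12.1%) lay within the ranges of the others (3.54 to 16.0% and 7.26 to 15.6%). The upstream end of the gene was not viewed on its own. Acot11, an acyl-CoA thioesterase, had state 14 in 8 of the 22 bins of its windows, a number that NZO/HlLtJ and PWK/PhJ also reached. Tlr11, a Toll-like receptor for a protein of microbes, had state 14 in 11 of 11 bins against 0 to 4, although a single bin of it was private.

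Mamdc2, a secreted protein, moved away from state 13. In NOD/ShiLtJ state 13 covered 0.548% of the gene (chr19:23302609-23448497) and in the others 21.1 to 44.4% (median 34.2%), with state 14 at 81.1% against 51.8 to 71.2% and state 6 at 11.1% against 0.685 to 2.05%. Of its 730 bins 127 were private. Nlrp9c, a member of the NLR family of innate sensors in a cluster of related genes, had state 13 over 47.4% of its body against 0 to 8.16%. The longest stretches of private state 9 lay in Sart1 and Srrm2, a pair of splicing factor genes. State 9 covered 78.9% of Sart1 in NOD/ShiLtJ (others 7.02 to 28.1%) and 33.7% of Srrm2 (others 1.74 to 12.8%). Each of these values lay outside the range of the other strains, but the genes were named because their private runs were long.

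At listed starts the lists of hepatocyte function had shares below the 12.4% of all genes, and at gene ends shares above the 19.0% of all genes without a listed start. Neither difference was tested. Of 28 hepatocyte markers with a listed start none had a private bin, whereas 3 of 8 without one did (37.5%). The median number of private bins per gene was 0 in every list of this report, as it was over all genes. Counts were 6 of 68 for xenobiotic and bile acid genes, 4 of 45 for lipid metabolism, 3 of 38 for insulin and glucose genes and 2 of 25 for the acute phase. At gene ends the counts of these lists were 4 of 17 (23.5%), 5 of 18 (27.8%), 2 of 7 (28.6%) and 1 of 5 (20%), so each share rests on few genes. Within gene bodies 1.98%, 2.16%, 2.03% and 1.98% of their bins were private, beside 1.64% over all genes and 1.29% for hepatocyte markers. Endothelial markers (0 of 14) and stellate and biliary markers (0 of 17) had none. The members described next include some that gained state 1 or 3 and some that left state 1. Slco1a1, a transporter of organic anions known to be higher in males, had state 3 in 5 of 11 bins, while the others had state 1 in 10 or 11 and state 3 in 0 to 1. Cyp7a1, the rate-limiting enzyme of bile acid synthesis, had state 1 in 20 of the 22 bins at its ends against 5 to 11 (median 9). Serpina3k, a serine protease inhibitor of plasma, had state 3 in 16 of 22 bins against 0 to 11, and Ttr, the thyroxine carrier transthyretin, in 4 of 22 against 1 in every other strain. In Cidec, which coats lipid droplets, state 1 was found in 14 of 16 bins against 7 to 13, and in the pyruvate kinase gene Pklr in 11 of 14 against 7 to 9. Of the 3 private bins of Cidec, however, 2 went from state 2 to 8 and 1 from 2 to 1. Like the private bins of Slco1a1, those of some other members left state 1. Sult2a1 had 4 such bins at its ends, Cyp3a44 (a steroid and drug hydroxylase) and Pfkfb3 (a regulator of glycolysis) had 2 each that went to state 8, and Il1rn and Gys2 had 1 each that went to state 2. State 1 was thus gained in some members and left in others, and named genes tend to lie outside the range of the other strains because they were chosen for private bins.

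Immune genes had a share close to that of all genes. Over 9 immune lists together, 45 of 380 genes with a listed start had a private bin at the start, which is 11.8% beside the 12.4% of all genes. By the same rule the other strains had 21 to 66 of these genes (median 38), so NOD/ShiLtJ ranked 3 of 9. Among the 108 immune genes without a listed start, 22 (20.4%) had a private bin at either end, beside 19.0% of all such genes. Within gene bodies 1.83% of the bins of immune genes were private, against 1.64% over all protein-coding genes. Of the 45, 9 had 3 or more private bins, 6 had a change from 14 to 9 and 5 a change from 14 to 13. With runs of a single bin left out the count was 17 (4.47%, beside 3.91% of all genes), and within 2500 bp of a start it was 77 (20.3%, beside 25.7%). The order of immune and all genes thus depended on the setting.

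**Figure D5:**
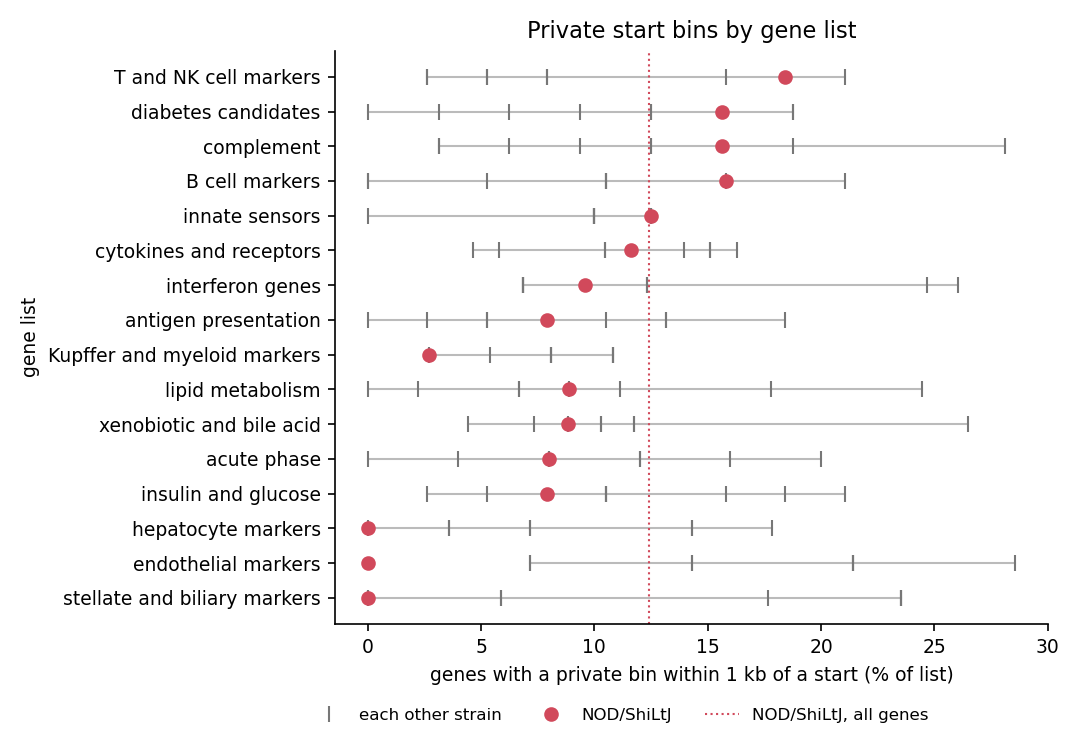
Genes of each list with at least 1 private bin within 1 kb of a start, in percent of the list members with a listed start, for NOD/ShiLtJ (filled circles) and each other strain by its own private bins (ticks). The dotted line is the 12.4% of all genes in NOD/ShiLtJ, and 5 of the 9 immune lists lie above it, the highest being the T and natural killer cell markers at 18.4%.

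T and natural killer cell markers had the highest share, 7 of 38 (18.4%, beside 12.4% of all genes). The other strains had 1 to 8 of these genes (median 2.5). Of the 7 in NOD/ShiLtJ, Klra9, Klra4 and Klrk1 changed from 14 to 13. They lie within 1 Mb of each other on chromosome 6, in the cluster of natural killer receptor genes. Klra9 had state 13 in all 11 bins of its window against 0 to 1, and Klra4 in 4 against 0. Klrk1, which encodes the activating receptor NKG2D, had it in 11 of 11, but WSB/EiJ had it in 7 and PWK/PhJ in 3. Over the Klra genes from Klra17 to Klra2 (chr6:129831154-131247716, a view chosen after the values were seen), state 13 covered 12.2% in NOD/ShiLtJ, second to 19.8% in PWK/PhJ, while CAST/EiJ had 9.09% and NZO/HlLtJ the lowest value, 1.12%. Of the 11 Klra genes, 3 had private bins at the start and 10 in the body, from 1 in Klra7 to 58 of 116 in Klra1. Copy number and sequence of this receptor family are known to differ between strains, and read placement among the copies was not tested.

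Of the other T cell genes, some gained state 9 and some state 10. Lat, the adaptor that links the T cell receptor to its signalling cascade, had state 9 in 4 of 11 bins against 0, and Cd27, a costimulatory receptor, in 2 against 0. Lag3, an inhibitory receptor, had state 9 in 4 of the 22 bins at its ends and state 4 in none, where the others had state 9 in none and state 4 in 6 to 11. Lef1 and Eomes, transcription factors of T cells, each had 2 bins that went from 12 to 10, and at Eomes state 10 filled 7 of 11 bins against 1 to 5. Among 19 B cell markers 3 were touched (15.8%, beside 12.4% of all genes), Fcmr with a single bin. Cd79a had state 9 in 6 of 11 bins against 0, and Vpreb1, part of the surrogate light chain of early B cells, in 9 of 11 against 0 to 4. Over the starts of these 19 genes state 9 covered 6.84% in NOD/ShiLtJ and 0 to 1.71% in the others. Most of these bins lay at Cd79a and Vpreb1, which were named for their private bins. Over the 19 genes states 1 to 3 together did not move with state 9, at 6.41% against 4.27 to 9.83%. Over all genes with a listed start state 9 was also highest in NOD/ShiLtJ, at 4.34% against 2.39 to 4.27%. T and natural killer markers had state 9 at 4.48%, within the range of the others (1.83 to 5.30%).

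Of 37 Kupffer and myeloid markers 1 was touched (2.70%, beside 12.4% of all genes), namely Siglech, a lectin of plasmacytoid dendritic cells. It had state 14 in all 11 bins of NOD/ShiLtJ, and state 13 in all 11 in each other strain except PWK/PhJ, which had 4. Innate sensors and inflammasome genes counted 5 of 40 (12.5%, close to the 12.4% of all genes), where the other strains had 0 to 5. Clec4d, a myeloid lectin receptor, had state 13 in 9 of 11 bins against 0 to 6. Sting1, the adaptor of cytosolic DNA sensing, had state 9 in 7 of the 22 bins at its ends against 0 to 5. Tlr1, Tlr2 and Traf6 had a single bin each. Interferon-stimulated genes counted 7 of 73 (9.59%, below the share of all genes), and none had more than 1 private bin at a listed start. For the interferon list PWK/PhJ and CAST/EiJ had 19 and 18 genes.

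Among cytokines, chemokines and their receptors 10 of 86 were touched (11.6%, beside 12.4% of all genes), and in the other strains 4 to 14. Il10, an anti-inflammatory cytokine, had state 13 in 17 of the 22 bins at its ends, against 0 in PWK/PhJ and 9 to 12 in the rest. Cxcl5, a chemokine for neutrophils, had state 13 in 8 of 22 bins against 0. Il7, the T cell growth factor made by stromal cells and hepatocytes, had 39 private bins of 209 in its body, 38 of them from 14 to 13. Of complement genes, which hepatocytes express, 5 of 32 were touched (15.6%, beside 12.4% of all genes), and in the other strains 1 to 9. Cfi, the protease factor I, had state 9 in 7 of the 22 bins at its ends against 0. Hc (complement component C5) had state 1 in 7 of 11 bins against 2 to 6, and C4bp in 8 against 6 to 8, so only the former lay outside the range of the other strains. Antigen presentation genes counted 3 of 38 (7.89%, below the share of all genes), each with 1 bin, namely H2-Q4, Psmb10 and B2m. Tapbpl, an editor of peptides on class I molecules, had state 9 in 5 of the 22 bins at its ends against 0.

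Candidate genes for autoimmune diabetes were touched at 5 of 32 listed starts (15.6%, beside 12.4% of all genes; other strains 0 to 6, median 3.5). The 5 were Ikzf1, Tnfrsf9, Cblb, Sh2b3 and B2m, and those without a listed start that had a private bin at an end were Il10, Cd4 and Ikzf4. Ikzf1 had 6 bins from 13 to 14, yet CAST/EiJ and PWK/PhJ each had state 14 in 4 of the 22 bins where NOD/ShiLtJ had it in 6. Tnfrsf9, a costimulatory receptor of T cells, had state 9 in 2 of 22 bins against 0. Cblb, Sh2b3 and B2m had a single bin. Over gene bodies 210 of 15970 bins of the 44 autosomal candidates were private (1.31%, beside 1.64% of all genes), and 20 genes (45.5%) had none, beside 47.7% of all genes. Those 20 include Il2, Il21, Ctla4, Icos, Cd28, Il7r, Ifih1, Ins1 and Ins2. The highest shares were 19.2% of Il10 (5 of 26 bins), 10.7% of Slc11a1 (6 of 56), a metal transporter of macrophages, and 8.93% of Erbb3 (10 of 112), a growth factor receptor. Slc11a1 and Erbb3 were singled out after their values were seen.

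The region of the major histocompatibility complex, the strongest genetic factor for diabetes in this strain, was viewed as a whole after the values were seen. From H2-K1 to H2-M2 (chr17:33996012-37483554), 578 of 17438 bins were private to NOD/ShiLtJ (3.31%, against 1.51% of the autosomes). By the same rule the others had 163 to 613 private bins there (median 190.5), and WSB/EiJ was above NOD/ShiLtJ. Of the 578, 346 (59.9%) were changes from 14 to 9 and 106 from 14 to 13. The region is rich in genes and in related gene copies; their part in this count was not tested.

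Some microRNA genes were also covered. Of 919 autosomal hairpins in the RefSeq table, 24 (2.61%) overlapped a private bin, 6 of them with a change from 14 to 9. All but 2 of the 24 overlapped 1 such bin. Their 38 mature forms had 38 different seeds (bases 2 to 8). The mature forms of 4 are printed with the seed in capitals as examples of 3 of the changes. Mir3068 (chr12:87437679-87437757) and Mir1306 (chr16:18284239-18284317) went from 14 to 9. Mir484 (chr16:14159626-14159692) went from 3 to 1, and Mir141 (chr6:124717914-124717985), of the family that restrains the transition from epithelial to mesenchymal cells, from 2 to 1.
mmu-miR-3068-5p: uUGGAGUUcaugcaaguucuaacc
mmu-miR-3068-3p: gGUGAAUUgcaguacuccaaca
mmu-miR-1306-5p: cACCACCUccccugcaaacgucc
mmu-miR-1306-3p: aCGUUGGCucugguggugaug
mmu-miR-484: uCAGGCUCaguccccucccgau
mmu-miR-141-3p: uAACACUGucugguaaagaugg
mmu-miR-141-5p: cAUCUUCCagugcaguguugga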

How the data were processed

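Per the labels, the series holds 117 chromatin immunoprecipitation libraries, 13 for each of 9 strains. The authors deposited 1 segmentation per strain. Its intervals tile each chromosome in steps of 200 bp, and the only value is a category, the number of 1 of 14 states. The submitters' processing notes name mm10, FastQC 0.11.5 and MACS 1.4.2 without saying what each was used for. The aligner, the segmentation tool, the mark content of the states and the depth are not given in the sources used here, so no counting error is stated. Replicate mice are merged in each segmentation.

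Segmentations were written as 200-bp bins of chromosomes 1 to 19. Gene starts and promoters came from RefSeq tables of GRCm38.p6, the assembly release that corresponds to mm10. Genes listed in the first 3 Mb of a chromosome, an assembly gap, carry positions of other scaffolds and were left out (328 of all kinds). A gene was called where its start window of 1 kb to each side held a private bin.

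The genes named were those with most private bins at the start, along the body, in the longest runs, in a change between states 1 to 3 and states 13 or 14, and in each of 16 gene lists. Members and lists were chosen with earlier results of these data known. Comparisons between strains are descriptions without a test, and Dixon's limit served only to pick out values for a closer look. Other consensus rules, bin sizes, merged states and windows were tried. Python 3.11.15, matplotlib 3.10.9, scipy 1.17.1, pandas 2.3.3 and numpy 2.4.6 were used, and the search was tested on simulated data, where all 4000 planted private bins were found.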

Additional observations from a re-analysis of the deposited data

Results flagged for a closer look

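Each set of 9 strain values was searched for a strain whose gap to its nearest neighbour exceeded Dixon's 95% limit for 9 values as a share of the whole range, which chance passes in about 1 of 20 sets. Of 47 sets, 7 held such a strain, and in 2 it was NOD/ShiLtJ. The share of private bins that went from 14 to 9 was 19.5% in NOD/ShiLtJ, with a gap of 0.926 of the range. State 13 over the Sult2a cluster was 44.4% in NOD/ShiLtJ, with a gap of 0.945 in a region named for its long private runs. Both values come from the bins or the region that the choice of members used, so they are descriptions and the limit is no test of them. Of the others, PWK/PhJ stood apart with 4.56% private bins and with 18 xenobiotic and bile acid genes that had a private start bin. NZO/HlLtJ stood apart with 5.71% of its private bins going from 4 to 14. C57BL/6J had 4.70% of its private bins going from 1 to 2 and 0 of the innate sensor genes with a private start bin.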

How the results depend on the processing

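No paired analysis was possible because each strain has 1 segmentation that merges its mice. Leaving each other strain out of the consensus in turn gave 201919 to 254116 private bins, 74.9 to 78.9% of them leaving state 14, 1.66 to 1.83% in start windows, 2234 to 2512 genes and 48 to 60 immune genes. Leaving out bins where the NOD/ShiLtJ or the shared state lay in an adjoining bin of the other gave 121401 bins, 80.7%, 1.25%, 714 genes and 17 immune genes. Without runs of a single bin, 82.9% left state 14, 1.13% lay in start windows, and 643 genes and 17 immune genes were called. Merging states 13 and 14 gave 86278 bins, 70.1% and 2.81%, and NOD/ShiLtJ then had rank 3 for private bins. Merging states 9 and 14, chosen after seeing the data, gave 151251 bins, 74.8% and 1.90%, with rank 5. Requiring only 7 of the other 8 to share a state gave 441844 bins. Windows of 500 bp gave 1209 genes and 0.942%, and windows of 2500 bp gave 4226 genes, 77 immune genes and 4.91%. At least 3 private bins gave 271 genes and 9 immune genes. Windows at both ends of all 20560 genes, also chosen after seeing the data, gave 4014 genes and 80 immune genes. Bins of 1000 bp kept the number of private bins within 1.5 times. Counts of genes thus depend on single bins and on the window. Depth is unknown, and its part in the state calls was not tested. The share in start windows, above the 1.56% of all bins in the main count, was below it both without bins beside a match and without single-bin runs. The immune share, below that of all genes in the main count, was above it at 500 bp (8.42% beside 7.35%), with at least 3 bins (2.37% beside 1.65%), without bins beside a match (4.47% beside 4.34%), without single-bin runs (4.47% beside 3.91%) and without PWK/PhJ (15.8% beside 15.3%).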

Other observations

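Private bins were spread unevenly over chromosomes and gene families. Chromosome 12 had the highest share in NOD/ShiLtJ, 2.02% of its bins, where the other strains had 0.641 to 3.91% (median 1.14%), and chromosome 18 the lowest, 1.07%. The 1 Mb window at 43 Mb of chromosome 12, which holds no protein-coding gene, had 604 private bins, 602 of them from 14 to 13, against at most 160 in another strain. It ranked 2 of 2454 windows, after one of the Sult2a cluster.

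Receptor genes of the nose made up a large part of the starts that gained state 13. Of 938 olfactory receptor genes, 5.70% of all genes with a listed start, 61 (6.50%) had a private start bin, beside 12.4% of all genes. Of the 61, 49 had a change from 14 to 13, which is 5.22% of the family beside 1.20% of all genes, and 24.9% of the 197 genes with that change. Only starts with state 14 in the other strains can make this change, and 2633 of 20085 promoters had state 14 in all 9 strains. The share of each family among such starts was not computed, so its part in the difference was not tested. Vomeronasal receptors counted 29 of 320 (9.06%), 27 of them from 14 to 13 (8.44% of the family). Zinc finger genes named Zfp counted 52 of 325 (16.0%), none from 14 to 13 and 10 from 14 to 9. All are families of similar copies, so read placement is uncertain. The view by family was chosen after the values were seen.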
